A study of Homo sapiens with 53 samples.

Results

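The 2 lists of CTCF peaks from HEK293T cells, a human embryonic kidney line, are described here: one from cells kept in DMSO, the solvent, and one from cells given 30 µM BPK-25, both for 72 h. Every row of each list was used, and overlapping or touching rows were joined, which gave 99587 CTCF peaks under DMSO and 245419 under BPK-25. Together these 345006 regions make up 48.9% of the 706206 peaks in the 10 lists of the series. The cells were the parental line, with no tag or edit named in the labels, and the labels give 3 anti-CTCF immunoprecipitates and 3 sonicated inputs per treatment. The remaining lists of the series are for MBD3 in the same cells and for Flag-tagged TET1, TET2 and TET3 in derived lines.

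CTCF is a zinc-finger protein that binds a long DNA motif. Together with cohesin it marks the anchors of chromatin loops and the boundaries of insulated domains, and many of its sites are shared between cell types. A single occupied motif usually gives a narrow peak with 1 summit, while several motifs close together give a wider peak with several summits. BPK-25 is known as a compound that lowers proteins of NuRD. This complex remodels nucleosomes and removes acetyl groups from histones, and MBD3 belongs to it. The series' title places the comparison in the question of what NuRD does at CTCF sites.

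Each list was taken as called on pooled replicates, so no value below has a spread between replicates, and no test between the treatments was possible. Intervals in parentheses are exact Clopper-Pearson 95% intervals for shares and binomial order-statistic intervals for medians, and they cover counting error only. The total number of reads per library is unknown here, and the antibody label was not checked against the CTCF motif, since no hg19 sequence was used. The genome background, the lowest local background in a list and a measure of its depth, was 3.68 fragments under DMSO and 2.58 under BPK-25. The lowest pileup called, that is the number of fragments stacked at a summit, was 11 and 8 fragments, or 2.99 and 3.10 times the genome background. Pileups are given below relative to the genome background of their own list.

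The BPK-25 list held many more peaks than the DMSO list, and they were narrower, carried several summits more often and lay far closer together. The median width was 253 bp (252 to 254) under BPK-25, with quartiles of 185 and 408 bp. Under DMSO it was 345 bp (343 to 346), with quartiles of 234 and 535 bp. The narrowest peaks were 148 bp wide under BPK-25 and 161 bp under DMSO, and the shortest gaps between peaks were 149 and 162 bp. The lower limits of the lists thus differed, and their part in the medians was not tested. Peaks under 200 bp made up 32.1% of the BPK-25 list and 14.1% of the DMSO list. At the wide end the lists were alike in share: 3.38% of BPK-25 peaks and 3.60% of DMSO peaks exceeded 1000 bp. In number the wide peaks differed, with 816 peaks over 2000 bp under BPK-25 and 158 under DMSO.

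The order of the widths depended on how many weak peaks were included. With each list limited to its 99587 peaks of highest -log10 q, the median was 378 bp under BPK-25 and 345 bp under DMSO. Among summits with a pileup of at least 10 times the genome background, the peaks numbered 57409 under BPK-25 and 70786 under DMSO, with medians of 458 and 418 bp. The narrow median of the whole BPK-25 list thus came with its many weak peaks. In the weakest decile of that list by -log10 q the median width was 201 bp, and in the strongest it was 594 bp.

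**Figure D1:**
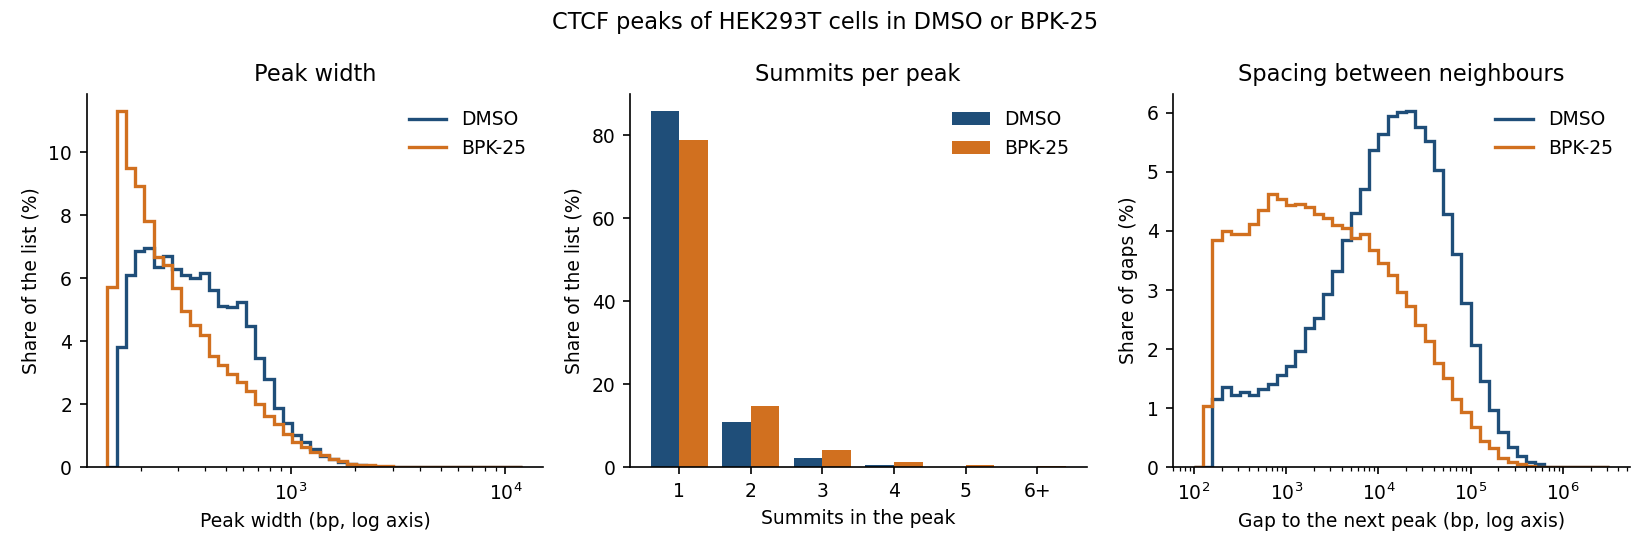
Width of CTCF peaks (left), summits per peak (middle) and gap to the next peak on the same chromosome (right), each as a share of the DMSO list (blue) or the BPK-25 list (orange). BPK-25 peaks are shifted to narrow widths and to short gaps, and 21.2% of them have 2 or more summits against 14.3% under DMSO.

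A summit is 1 row of a deposited list, and a peak with several summits is one in which the authors' peak caller found several local maxima. Under DMSO 85.7% of CTCF peaks (85.5 to 86.0) had 1 summit, 10962 peaks had 2, 2377 had 3, and 0.871% of the list had 4 or more. Under BPK-25 78.8% (78.7 to 79.0) had 1 summit, 36149 had 2, 10086 had 3, and 2.33% had 4 or more. The mean number of summits per peak was 1.19 under DMSO and 1.32 under BPK-25, and the highest was 20 and 29. At equal list length the share with several summits was 37.9% under BPK-25 and 14.3% under DMSO. Within peaks the summits lay closer together under BPK-25, with a median spacing of 280 bp (quartiles 217 and 355) against 326 bp (271 and 418). The most frequent spacing was 260 to 280 bp under BPK-25 and 300 to 320 bp under DMSO, counted in steps of 20 bp. Spacings under 200 bp made up 18.7% under BPK-25 and 7.99% under DMSO. The lists also differed in their lowest width and lowest gap, and the part of such limits in the spacings was not tested.

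Neighbouring CTCF peaks under DMSO were separated by a median gap of 12985 bp (12811 to 13142), with quartiles of 3888 and 34444.5 bp. Under BPK-25 the median gap was 2257 bp (2234 to 2281), with quartiles of 622 and 9470 bp, or 0.174 times the DMSO value. The mean gap was 30201 bp under DMSO and 12059.5 bp under BPK-25. Gaps under 1000 bp made up 10.6% of DMSO gaps and 34.4% of BPK-25 gaps. Runs of 3 or more peaks with gaps under 1000 bp between them numbered 1553 under DMSO and held 5.22% of the peaks. Under BPK-25 there were 16953 such runs, which held 31.2% of the peaks. At equal list length the median gap was still shorter under BPK-25, at 4379 bp against 12985 bp.

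The longest run of DMSO peaks on chromosomes 1 to 22 and X lay on chromosome X, 114969273 to 114989127 in hg19. It held 24 peaks in 19855 bp, and all 24 overlapped a BPK-25 CTCF peak. The longest BPK-25 run was on chromosome 9, 137229747 to 137279715, with 51 peaks in 49969 bp. Of these 51 peaks, 12 overlapped a DMSO peak. Over the whole lists, 39.2% of DMSO peaks and 16.7% of BPK-25 peaks overlapped a peak of the other list. These 2 runs were singled out as the longest after the values were seen.

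The next comparison follows the DMSO sites under BPK-25. A DMSO peak was called kept where at least 1 bp of it lay in a BPK-25 CTCF peak and lost otherwise, and a BPK-25 peak was called new where it met no DMSO peak. Kept peaks numbered 39068, or 39.2% of the DMSO list (38.9 to 39.5), lost peaks 60519, or 60.8%, and new peaks 204469, or 83.3% of the BPK-25 list (83.2 to 83.5). By length, 33.0% of the bases in DMSO peaks were covered by BPK-25 peaks. Under a stricter rule, with a BPK-25 summit within 100 bp of the top DMSO summit, 27.4% of the DMSO peaks were kept. This rule was chosen after the data were seen, because a wide peak meets the 1 bp rule more easily than a narrow one.

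Kept DMSO peaks were wider than lost peaks and carried several summits more often, and their strengths were spread more widely. Kept peaks had a median width of 445 bp (441 to 450), lost peaks 307 bp (305 to 309). Several summits were present in 26.9% of the kept peaks and in 6.12% of the lost peaks. All 158 DMSO peaks over 2000 bp were kept. The median fold enrichment was lower in kept peaks, 8.73 (quartiles 4.12 and 47.6), than in lost peaks, 12.8 (6.14 and 35.5), and the quartiles of the kept peaks lay outside those of the lost peaks at both ends. Kept peaks also lay closer to another DMSO peak, at a median of 2843 bp against 8245 bp. The local background, which follows the input and the surroundings of a site, was higher at kept peaks, with a median of 1.74 times the genome background against 1.32 times.

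Most lost sites had no BPK-25 CTCF peak within 1000 bp. The nearest one lay at a median distance of 5333 bp (quartiles 1401 and 16196). Of the lost peaks, 20.2% had one within 1000 bp and 64.1% within 10000 bp. In all, 48279 DMSO peaks, 48.5% of the list, had no BPK-25 CTCF peak within 1000 bp. Among them were 6859 peaks with a pileup of at least 100 times the genome background. Of all DMSO peaks with such a pileup, 53.1% were kept. New BPK-25 peaks lay at a median of 5553 bp from a DMSO peak, and 71.1% of the BPK-25 list had no DMSO peak within 1000 bp.

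New peaks were weaker and narrower than BPK-25 peaks at DMSO sites. Their median fold enrichment was 3.61 (quartiles 2.96 and 4.47) against 4.73 (3.61 and 6.33), and their median width was 238 bp against 400 bp. Several summits were found in 17.1% of new peaks and in 41.6% of the BPK-25 peaks seen before. In the weakest decile of the BPK-25 list 94.5% of peaks were new, and in the strongest 51.0%. Outside regions of high local background, 44 BPK-25 peaks had a pileup of at least 100 times the genome background, against 18334 DMSO peaks.

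With all strengths together, the share of DMSO peaks kept differed little between the narrow deciles of width and was highest for the widest peaks. It lay between 28.0% and 29.7% in the 4 narrowest deciles of width, with median widths of 174 to 272 bp. It was 53.7% (52.8 to 54.7) in the 9th decile and 82.4% (81.6 to 83.1) in the widest, where the median width was 911 bp. With a BPK-25 summit required within 100 bp, the shares ran from 21.5% to 22.8% in the 4 narrowest deciles and were 35.6% and 53.0% in the 2 widest. The difference between peaks wider than the median and the others was 19.7 percentage points under the 1 bp rule and 10.6 points under the summit rule. By strength the kept share had its low point in the 8th decile of -log10 q, at 24.4%, while 66.5% of the weakest and 70.6% of the strongest decile were kept. The weakest decile was also narrow, with a median width of 212 bp, so widths were compared among peaks of like strength. The DMSO list was divided into 5 classes by -log10 q and each of these into 4 classes by width. In all 5 the kept share was higher in each wider class, the narrow ones included. Among the strongest peaks the shares were 85.1% (84.1 to 86.1) and 21.7% (20.5 to 22.9) for the widest and the narrowest class. In the middle class of strength they were 11.6%, 16.5%, 29.2% and 63.8% at median widths of 240, 280, 334 and 539 bp. Under the summit rule the widest and narrowest classes had 59.6% and 18.9% among the strongest, and 36.9% and 9.28% in the middle class. Among kept peaks alone, the match of summits went the other way with width. A BPK-25 summit lay within 100 bp in 64.3% of kept peaks in the widest decile and 78.9% in the narrowest. In the middle class of strength these shares were 57.9% and 79.7% for the widest and narrowest classes.

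Peaks with more summits were also kept more often. Of DMSO peaks with 1 summit 33.5% (33.1 to 33.8) were kept, of those with 2 summits 68.6% (67.8 to 69.5), with 3 summits 89.6% and with 4 summits 97.2%. All 80 peaks with 6 or more summits were kept. Under the summit rule the share was 24.3% with 1 summit, 43.2% with 2 and 71.2% with 6 or more. In peaks with several summits, the top summit and its weaker companions were met about as often. A BPK-25 summit lay within 100 bp of 46.1% of the top summits (45.3 to 47.0), whose median fold enrichment was 26.0. It lay within 100 bp of 47.7% of the other summits (47.0 to 48.4), whose median fold enrichment was 3.80.

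DMSO peaks with a near neighbour were kept more often than isolated ones. The share was 71.5% (70.7 to 72.4) where the next DMSO peak lay within 500 bp, 35.0% at 5000 to 10000 bp, and 10.1% (8.43 to 12.1) beyond 100000 bp. The median fold enrichment was 6.31 in the first of these groups and 11.5 in the last. Distances were not compared among peaks of like strength, so the part of strength in these shares was not tested. The kept share also moved with local background, from 15.4% in its lowest decile to 64.5% in its highest. In the widest decile of peaks it was 75.2% in the lowest of 4 classes of local background and 88.5% in the highest, and in the narrowest decile 15.0% and 40.2%. The part of local background in these shares was not tested further.

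**Figure D2:**
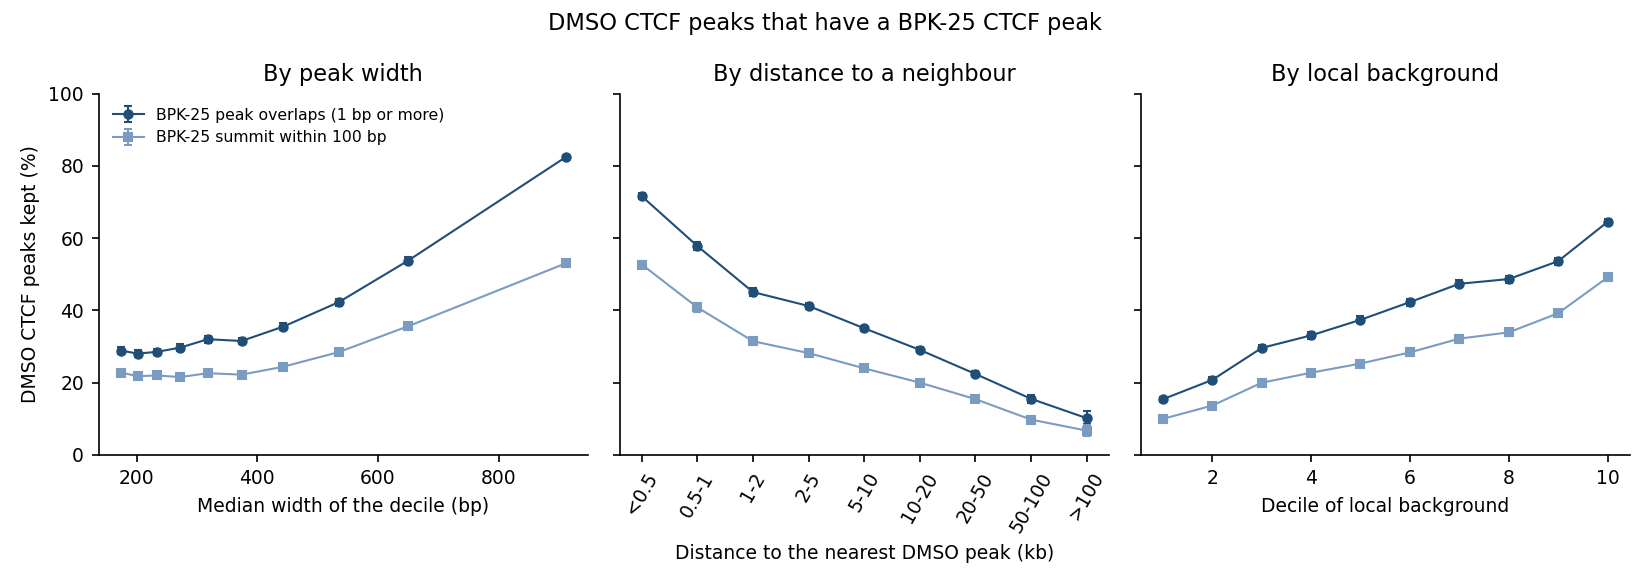
Share of DMSO CTCF peaks kept under BPK-25, by decile of peak width, by distance to the nearest DMSO CTCF peak and by decile of local background (10 is the highest), with 95% Clopper-Pearson intervals. Dark circles count any overlap and pale squares require a BPK-25 summit within 100 bp; under both rules the share is highest for wide peaks, close neighbours and high local background.

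To compare sites within the 2 lists, pairs were formed of 1 DMSO and 1 BPK-25 peak that overlapped each other and no further peak. There were 33811 such pairs. A further 2974 DMSO peaks, with a median width of 962 bp, each overlapped 2 to 5 BPK-25 peaks, and 1195 BPK-25 peaks each spanned 2 to 7 DMSO peaks. Over all pairs the DMSO pileup had a median of 16.6 times the genome background, with quartiles of 7.61 and 86.8. The BPK-25 pileup had a median of 9.70 times, with quartiles of 6.98 and 13.6. The spread of BPK-25 pileups was thus much smaller than that of DMSO pileups in these overlapping peaks. The top summits compared need not coincide. In 69.9% of pairs a BPK-25 summit lay within 100 bp of the top DMSO summit. The BPK-25 pileup was at most 0.5 times the DMSO pileup in 16114 pairs, or 47.7%, and at least 2 times in 3925 pairs, or 11.6%.

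BPK-25 pileups hardly followed DMSO strength. From the weakest to the strongest decile of DMSO peaks, the median DMSO pileup of the pairs went from 4.89 to 319 times the genome background. The median BPK-25 pileup stayed between 8.54 and 11.3 times in all 10 deciles. In the weakest decile BPK-25 pileups were the higher ones, with a median ratio of 2.02 (quartiles 1.49 and 2.79). In the 3rd decile the ratio was 1.04, and in the strongest it was 0.0341 (0.0272 and 0.0436). Each of the 2502 and 5653 pairs in the 2 strongest deciles had a BPK-25 pileup at most 0.5 times that under DMSO. Only sites called in both lists enter the pairs, so a weak DMSO site enters only where BPK-25 reached the calling threshold too.

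The widths of paired peaks also differed by DMSO strength. In the weakest DMSO decile the BPK-25 peak had a median of 462 bp and the DMSO peak 230 bp, and the BPK-25 peak was the wider one in 83.8% of pairs. In the 5th decile the median ratio of widths was 0.994. In the strongest decile the medians were 381 and 710 bp, and the BPK-25 peak was wider in 12.7% of pairs. The distance between the summits had a different course. In these pairs the median distance from the DMSO summit to the nearest BPK-25 summit was 51 bp in the weakest decile, 87 bp in the 8th and 26 bp in the strongest. In the strongest decile 83.1% of paired summits lay within 100 bp, against 53.7% in the 8th. The strongest DMSO sites that were also called under BPK-25 had summits near the DMSO position, at a small share of the DMSO pileup.

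**Figure D3:**
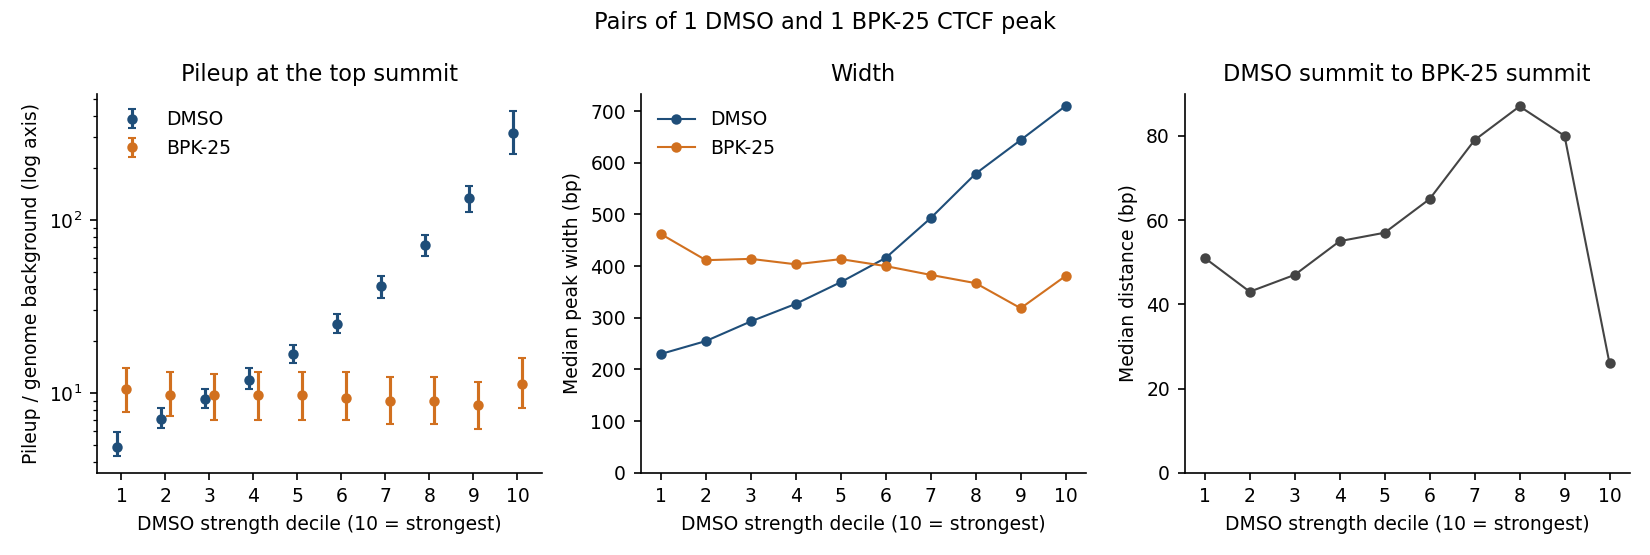
Pairs of overlapping peaks by decile of DMSO strength: median pileup relative to the genome background with quartiles (left, log axis), median width (middle) and median distance from the DMSO summit to the nearest BPK-25 summit (right). DMSO pileup and width climb across the deciles while BPK-25 pileup stays between 8.54 and 11.3 times the genome background.

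Along the genome the 2 lists favoured the same chromosomes, and the BPK-25 list did so more steeply. Under DMSO the density ran from 24.2 peaks per Mb on chromosome 18 to 71.8 on chromosome 19, with a median of 32.2 over 23 chromosomes. Under BPK-25 it ran from 45.2 on chromosome 18 to 279 on chromosome 22, with a median of 83.2. After chromosome 19, DMSO peaks were densest on chromosomes 22 and 17, at 65.6 and 59.0 per Mb. BPK-25 peaks were at 218 per Mb on chromosome 19 and 190 on chromosome 17. The ratio of peak numbers, BPK-25 to DMSO, was highest on chromosomes 22, 17 and 21, at 4.25, 3.21 and 3.15, and lowest on chromosomes 3, 18 and X, at 1.83, 1.87 and 1.95. Density was taken over the span from the first to the last peak of either list.

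Chromosomes dense in BPK-25 peaks also had high kept shares. On chromosome 19, 64.2% of DMSO peaks (62.7 to 65.6) were kept, on chromosome 22 60.9% and on chromosome 17 57.0%. At the other end were chromosomes 13, 18 and 3, with 26.6% (24.9 to 28.4), 26.7% and 29.3%. Across the 23 chromosomes Spearman's rho between the kept share and the density of BPK-25 peaks was 0.948, a description of chromosomes that share both libraries. The kept share can follow the density of BPK-25 peaks by position alone, and how much of it does was not tested. The median DMSO fold enrichment went the other way at the top, with 9.44 on chromosome 19, the lowest of the 23. The new share varied little, from 77.7% on chromosome 19 to 86.7% on chromosome 13.

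**Figure D4:**
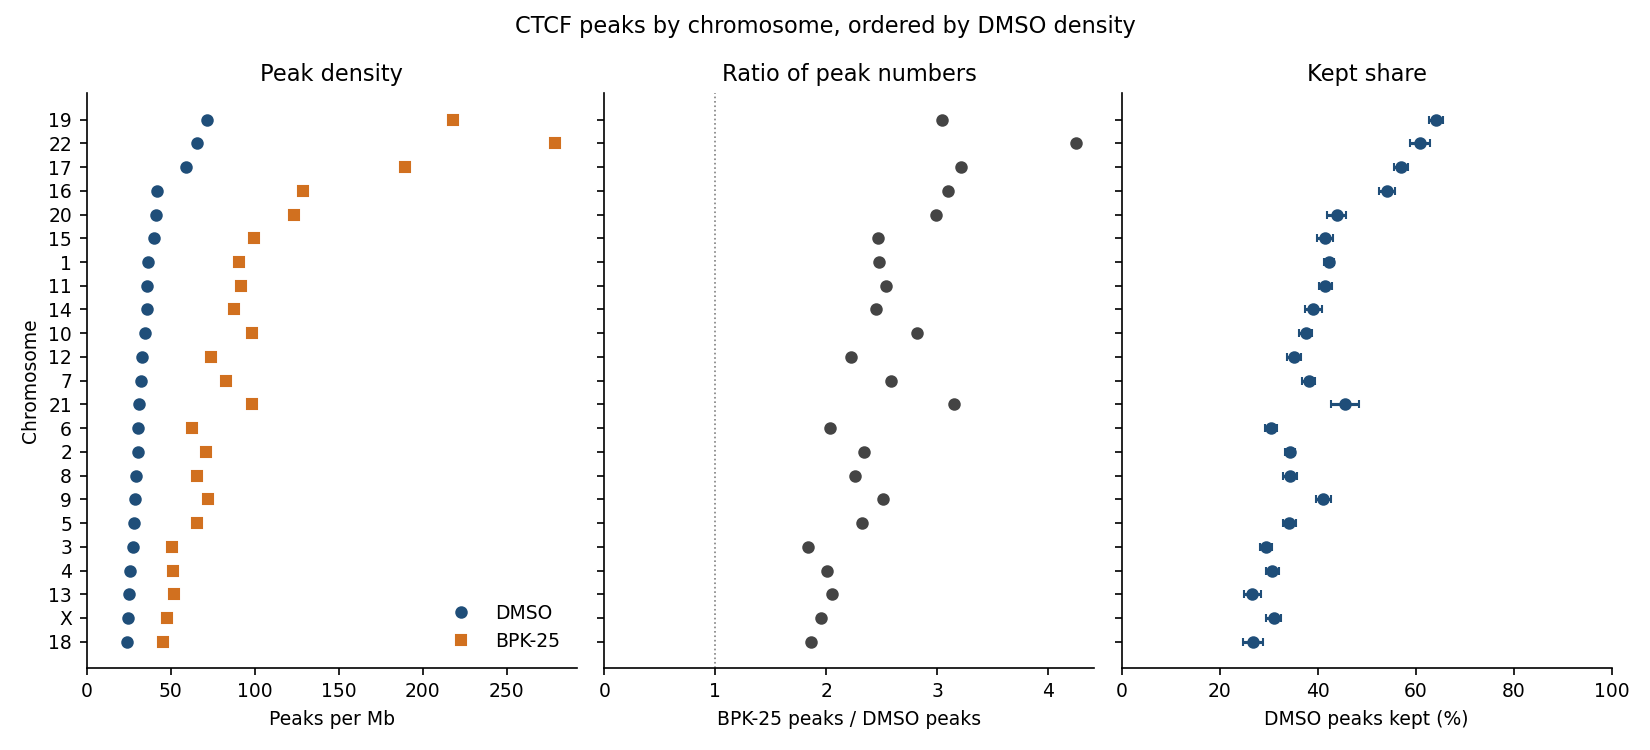
Peaks per Mb, ratio of BPK-25 to DMSO peak numbers and share of DMSO peaks kept (with 95% Clopper-Pearson intervals) for each of 23 chromosomes, ordered by DMSO density. Chromosomes 19, 22, 17 and 16 have the highest densities and the highest kept shares, and the ratio lies above 1 on every chromosome.

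BPK-25 peaks were also gathered toward the chromosome ends. The outer 5 Mb held 23.2% of the BPK-25 peaks and 13.4% of the DMSO peaks of chromosomes 1 to 22 and X. The ratio of peak numbers was 4.49 between 1 and 2 Mb from the end and 1.86 beyond 50 Mb. The median BPK-25 gap was 659 bp between 1 and 2 Mb and 5194 bp beyond 50 Mb, while the DMSO gap was 4805.5 and 17724 bp. BPK-25 peaks near the ends were wider, with medians of 340 and 236 bp at these distances, whereas DMSO medians were 343 and 339 bp. Of DMSO peaks, 75.7% (74.1 to 77.1) were kept between 1 and 2 Mb from the end and 30.1% (29.5 to 30.6) beyond 50 Mb. Under the summit rule these shares were 54.1% and 20.9%. The median DMSO fold enrichment was 6.92 at the first distance and 12.1 at the second, and the median local background 1.52 and 1.39 times the genome background. Ends were taken as the outermost peaks, and 5 chromosomes whose first peak lay beyond 1 Mb were measured from the far end alone.

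**Figure D5:**
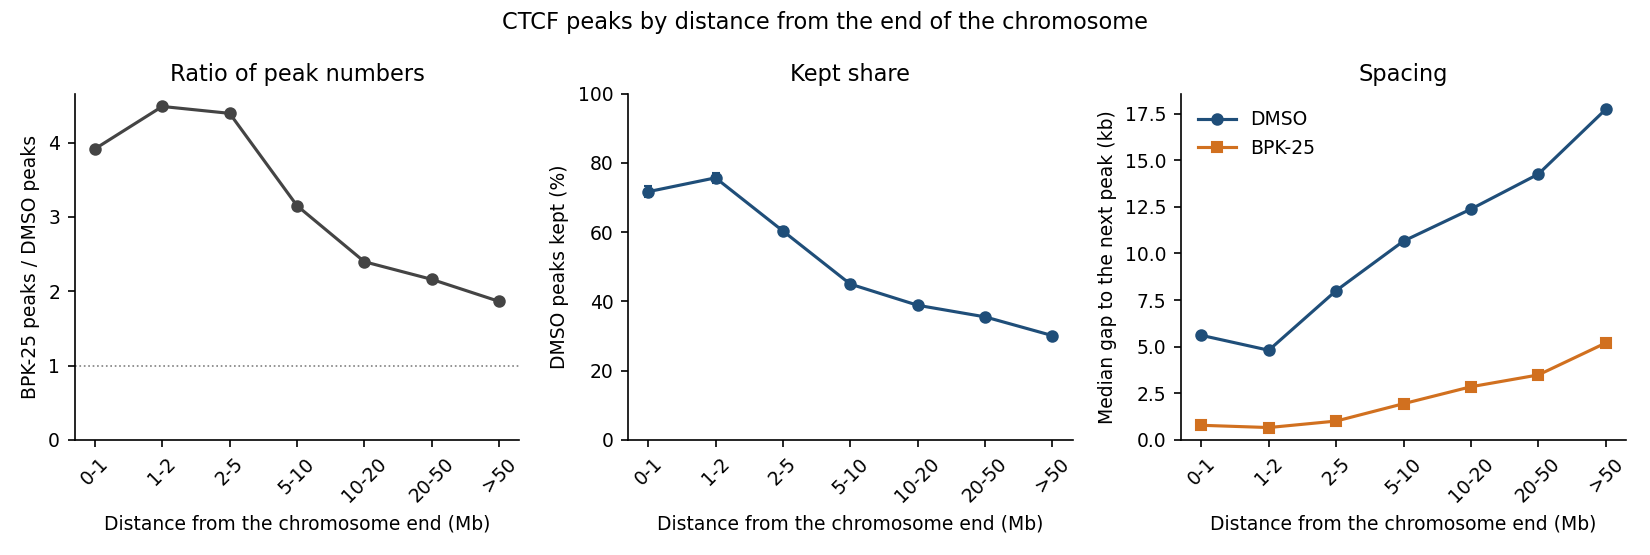
Ratio of BPK-25 to DMSO peak numbers, share of DMSO peaks kept and median gap to the next peak, by distance from the chromosome end in Mb. The ratio and the kept share are highest within 5 Mb of the ends, where gaps are shortest in both lists.

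In bins of 1 Mb the gathering of BPK-25 peaks was stronger than that of DMSO peaks. Of 2886 bins with a peak in either list, the fullest 10% held 40.2% of the BPK-25 peaks and 25.9% of the DMSO peaks. The median bin had 29 DMSO peaks (quartiles 18 and 43) and 43 BPK-25 peaks (22 and 103). Across these 2886 bins, which share both libraries, the 2 counts had a Spearman's rho of 0.867. The bins with most DMSO peaks were on chromosome 19, from 1000001 to 2000000, with 216 DMSO and 656 BPK-25 peaks, on chromosome 9, from 139000001 to 140000000, with 182 and 668, and on chromosome 17, from 79000001 to 80000000, with 178 and 658. The fullest BPK-25 bin was on chromosome 10, from 134000001 to 135000000, with 713 BPK-25 peaks and 117 DMSO peaks.

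Kept shares differed widely between bins. The bins were divided into 5 classes by their number of BPK-25 peaks. In the class with fewest, at most 19 each, 11.4% of DMSO peaks (10.7 to 12.2) were kept, and in the class with most, at least 133 each, 59.6% (59.2 to 60.1). A peak is kept by meeting a BPK-25 peak, so a rise with their number is partly built into this comparison. How much of the rise this accounts for was not tested. Among the 2030 bins with at least 20 DMSO peaks, 262 had fewer BPK-25 than DMSO peaks and 12 had no kept peak. The highest kept shares were on chromosome 20, from 62000001 to 63000000, where 112 of 122 DMSO peaks were kept, and on chromosome 11, from 1000001 to 2000000, where 93 of 102 were. None was kept of 27 DMSO peaks on chromosome 3, from 188000001 to 189000000, of 25 on chromosome 6, from 69000001 to 70000000, or of 24 on chromosome 4, from 181000001 to 182000000. These bins held 10, 17 and 32 BPK-25 peaks.

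The widest DMSO peaks were also those with most summits, and they all lay on chromosome 1. The widest was the region from 2685211 to 2691408, with 6198 bp and 11 summits, which overlapped 4 BPK-25 peaks. Its top summit stood at 299 times the genome background under DMSO and the highest summit of those BPK-25 peaks at 43.8 times. The region from 228744141 to 228750053 had 20 summits in 5913 bp, and the one from 228772267 to 228776878 had 16 in 4612 bp. The BPK-25 peaks that overlapped them had higher top pileups, 110 times against 88.5 times and 229 times against 89.9 times. At the first, the BPK-25 peak was 9602 bp wide, and its top summit lay beyond the end of the DMSO region. Under DMSO the local background of these regions stood at 8.54 and 7.84 times that of the genome. Relative to local background the top summits of the lists were close in both cases. The fold enrichment was 10.5 under BPK-25 and 10.1 under DMSO at the first, and 10.5 and 11.1 at the second. In fragments, these top pileups were 284 under BPK-25 and 326 under DMSO at the first, and 590 and 331 at the second. A close pair, 161416422 to 161420899 and 161431268 to 161435689, had 10 summits each and was lower under BPK-25, at 71.8 times against 156 times and 63.2 times against 165 times.

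Some BPK-25 peaks were wider than any under DMSO. The widest, on chromosome X from 30806638 to 30818035, was 11398 bp wide with 28 summits, and its highest summit stood at 29.5 times the genome background in a local background of 1.14 times. DMSO had 2 peaks there, with 638 bp in all and a top pileup of 4.35 times. On chromosome 2, the region from 87640069 to 87649753 had 24 summits and 410 times the genome background under BPK-25, the highest outside regions of high local background, against 44.0 times under DMSO. Its local background was 17.8 times the genome background. On chromosome 22, the region from 20708500 to 20716511 had 23 summits in 8012 bp, with a local background of 2.32 times and pileups of 37.6 times under BPK-25 and 5.98 times under DMSO.

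The 5 most significant kept DMSO peaks were narrower than these, between 599 and 1540 bp, with 1 or 2 summits. Their pileups were 1391 to 1708 times the genome background under DMSO and 33.8 to 68.7 times under BPK-25, so that the DMSO pileup was 24.9 to 41.2 times the BPK-25 pileup. The BPK-25 summit lay 6 to 49 bp from the DMSO summit. At the first of them, on chromosome 17 between 79074724 and 79076263, the pileup was 5220 fragments under DMSO and 110 under BPK-25. The 5 most significant DMSO peaks with no BPK-25 peak within 1000 bp all had a single summit and were 462 to 657 bp wide. Their pileups were 537 to 600 times the genome background, and the nearest BPK-25 CTCF peak lay 1615 to 15988 bp away. They included chromosome 17 from 66168467 to 66169122, with a fold enrichment of 239, and from 45078414 to 45078920, with 192. On chromosome 1 the peak from 147553424 to 147553929, with a fold enrichment of 146, had another DMSO peak 443 bp away.

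New BPK-25 peaks reached lower levels than these. Outside high local background, the 5 most significant with no DMSO peak within 1000 bp had pileups of 64.0 to 133 times the genome background and 1 to 8 summits. The region on chromosome 15 from 102295120 to 102297865 had 8 summits in 2746 bp, in a local background of 15.6 times. The peak on chromosome 4 from 190731728 to 190732184 had 1 summit and the highest fold enrichment of the 5, 25.1, in a local background of 2.18 times. On chromosome 7 the region from 157508392 to 157509820 had 6 summits and a fold enrichment of 14.8. On chromosome 6 the peak from 170361123 to 170361405 was 283 bp wide, and the nearest DMSO CTCF peak lay 37379 bp away.

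The CTCF and MBD3 lists of the same cells lay further apart in shape under DMSO than under BPK-25, a difference with no replicates to test it. Under DMSO the CTCF and MBD3 lists had median widths of 345 and 290 bp, 14.3% and 23.7% of peaks with several summits, and median gaps of 12985 and 7901 bp. Under BPK-25 the values were 253 and 261 bp, 21.2% and 22.1%, and 2257 and 2088 bp. The MBD3 list also grew, from 82358 peaks under DMSO to 243213 under BPK-25, so a longer BPK-25 list was shared by CTCF and MBD3 in these cells. The lists of the derived lines did not grow. TET1, TET2 and TET3 had 5951, 1233 and 14129 peaks under DMSO and 447, 509 and 13360 under BPK-25. Under DMSO the median relative pileup was 19.6 for CTCF and 6.85 for MBD3, and under BPK-25 it was 6.98 and 7.40. As labelled, the inputs are shared by both targets within a treatment, and their part in the likeness was not tested.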

How the data were processed

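CTCF was measured by chromatin immunoprecipitation and paired-end sequencing in HEK293T cells, with 3 labelled replicates per treatment and 3 inputs per treatment. The submitters' processing notes name MACS2 2.1.2, bedtools 2.25.0, Bowtie2 2.3.4, SAMtools 1.9, FastQC 0.11.7 and build hg19, with no role or parameter. Replicates of a group share 1 list in the labels, so each list was treated as a call on pooled replicates. Per the column layout of the deposited files, the authors' peak caller gave each summit a fold enrichment (a ratio), a -log10 p-value, a -log10 q-value and an offset from the interval's start. The lowest -log10 q was 1.30, a q of 0.05. They were used to rank and filter peaks, and values of both lists are set side by side without a test; each list has its own depth.

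Pileup (n) and local background were solved from the deposited fold, taken as the quotient of (n + 1) and (background + 1), and the deposited Poisson -log10 p. Below a pileup of 200, 100% of solved values lay within 0.02 of a whole number. Coordinates are 1-based. No rows overlapped or touched other than those with identical intervals, so merging joined the summits of 1 interval. High local background means at least 20 times the genome background, as at 21 DMSO and 232 BPK-25 peaks. Regions were named on chromosomes 1 to 22 and X, below that limit: the 5 widest peaks and the 5 with most summits per list, the 5 of highest -log10 q among kept DMSO peaks, among DMSO and among BPK-25 peaks with none of the other list within 1000 bp, and the 3 bins highest and lowest in each bin measure. The 5 of most summits were partly the same as the widest, and not every bin or region is printed. Members and rules were chosen with earlier results of these data known. Peaks are given by position alone, without hg19 sequence or genes. Calculations used Python 3.11.15, NumPy 2.4.6, pandas 2.3.3, SciPy 1.17.1 and numba 0.67.0, and were tested on simulated data.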

Additional observations from a re-analysis of the deposited data

How the results depend on the processing

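Each of 7 results was recomputed under up to 9 alternatives; the cause of a change was not tested except where the setting itself removes weak peaks or summits. The number of peaks, BPK-25 divided by DMSO (2.46 as reported), turned to 0.590 at a -log10 q of at least 10 and 0.811 at a pileup of at least 10 times the genome background, and is 1 by construction for equal numbers. The ratio of median widths (0.733) turned to 1.31, 1.10 and 1.10 in the same order of settings, and was 0.754 with rows within 500 bp merged and 0.699 without the outer 5 Mb. The ratio of median gaps (0.174) was 0.557, 0.353 and 0.337, then 0.273 and 0.229. The difference in peaks with several summits (6.91 percentage points) was 10.8, 13.4, 23.6, 13.5 and 4.88 points. The kept share (39.2%) was 16.8%, 19.9%, 27.8%, 38.0% and 35.0%, and 29.6% with 50% of the peak covered and 27.4% by summits within 100 bp. The new share (83.3%) was 70.8%, 74.5%, 71.9%, 82.2% and 83.1%, then 87.3% and 89.3%. The difference in kept share between wider and narrower peaks (19.7 points) was 22.1 points by pileup, 17.4 for equal numbers, 24.7 with 500 bp merged, 7.03 with 50% covered and 10.6 by summits. Without peaks of high local background, and on chromosomes 1 to 22 and X alone, all 7 stayed within their counting error or within 1.5 times for the number of peaks. The summit rule, the outer 5 Mb and high local background were added after seeing the data.

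No paired analysis was possible because each treatment has 1 list for all its replicates; for the same reason no replicate was left out. The BPK-25 genome background was 70.0% of that under DMSO, and a site not called under BPK-25 is not shown to be unoccupied.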

Other observations

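The alternate haplotypes of chromosome 6, which hold versions of the major histocompatibility region, had 942 DMSO peaks and 239 BPK-25 peaks, a ratio of 0.254 against 2.48 on chromosomes 1 to 22 and X. Of these 942 peaks 67, or 7.11%, were kept. Their median fold enrichment was 14.7 under DMSO and 3.63 under BPK-25. The other alternate haplotypes had 77 and 112 peaks, sequences unlocalized on a chromosome 81 and 255, and unplaced sequences 132 and 468. How reads that map to several such copies were treated is not given in the sources used here. The mitochondrial genome had 0 DMSO and 8 BPK-25 peaks, with a median fold enrichment of 1.57 and a local background of 690 times the genome background. On chromosome Y the lists gave 83 and 253 peaks, at a median local background of 1.00 times in both. Whether the reads of these peaks came from a chromosome Y in the cells was not tested.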
